A study of Zea mays with 6 samples.

Results

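Transcript abundance in the tips of maize primary roots (PR) was compared with that in the tips of seminal roots (SR), both without NaCl, to find the genes and annotated functions that marked each root type before any salt was given. The comparison used 2 of the 6 libraries of the study, 1 for PR and 1 for SR, chosen by their labelled root type and NaCl level. Seeds of the cultivar Chang 7-2 were first kept in wet filter paper until the primary roots had elongated. The seedlings were then raised in a growth chamber in Hoagland's solution, a mineral nutrient medium. The PR were selected 3 days and the SR 7 days after germination, and both were then kept for 24 h in this solution with 0 mM NaCl. Tips of 1 cm from 10 to 15 roots were pooled for each library. The matching PR-salt and SR-salt libraries came from roots of the same ages given 100 mM NaCl for 24 h, and the crown root libraries (CR and CR-salt) from plants of 15 days. Their values are printed beside those of PR and SR as a description. Root type, plant age and, with age, the time spent in nutrient solution changed together, so that they cannot be told apart. The labels mention 3 biological replicates for each root type, but each condition had 1 library, so no value has a replicate error and the intervals given are for counting error only.

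To the nearest 1000, PR held 2558000 and SR 2493000 uniquely counted reads, and the 6 libraries ranged from 2493000 to 2663000. Between 17578 and 17879 transcripts of each library rested on 1 to 9 reads. One text of the labels speaks of RNA from shoots and roots, while the tissue is labelled root tip. Of 78 photosynthesis transcripts, 13 had at least 20 reads in PR and SR together, and none of these differed between them by the rule given below. Their summed level was 341 RPKM (reads divided by transcript length and by the counted reads of the library) in PR and 370 in SR, within a range of 254 to 440 over the 6 libraries. Histone transcripts, which mark dividing cells, summed to 10833 RPKM in PR and 14596 in SR, so both libraries held the messages of a dividing tip. The part of these differences in the results was not tested.

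Maize forms its primary root and its seminal roots in the embryo, and the seminal roots emerge from the scutellar node after the primary root. Grasses take up iron as a chelate: they build nicotianamine from S-adenosylmethionine, convert it to phytosiderophores of the mugineic acid family, release these into the soil and import the iron complex. Each nicotianamine made leaves methylthioadenosine behind, which the methionine salvage cycle turns back into methionine.

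Of 40709 transcripts detected by 1 read or more, 635 (1.56%) were called different, where the FDR was 0.001 or lower and the RPKM differed at least 2-fold (an absolute log2 ratio of 1). They came from 632 genes. In 335 the level was higher in PR (0.823% of those tested) and in 300 it was higher in SR (0.737%). The test, that of Audic and Claverie, compares the reads of these libraries and not the root types. Without the ratio limit 1143 passed the FDR. Among these 1143 the largest absolute log2 ratio not called was 0.995 and the smallest called was 1.002. The transcripts higher in PR held 3.80% of the reads of PR and 1.05% of those of SR, and those higher in SR held 3.98% of the reads of SR and 0.85% of those of PR. At least 8-fold differences, after adding 1 read, were found for 101 transcripts higher in PR and 64 higher in SR. In 29 of the PR-high transcripts SR had no read, and in 16 of the SR-high ones PR had none. In RNA from whole tips, fewer cells of a type and less RNA per cell cannot be told apart.

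**Figure D1:**
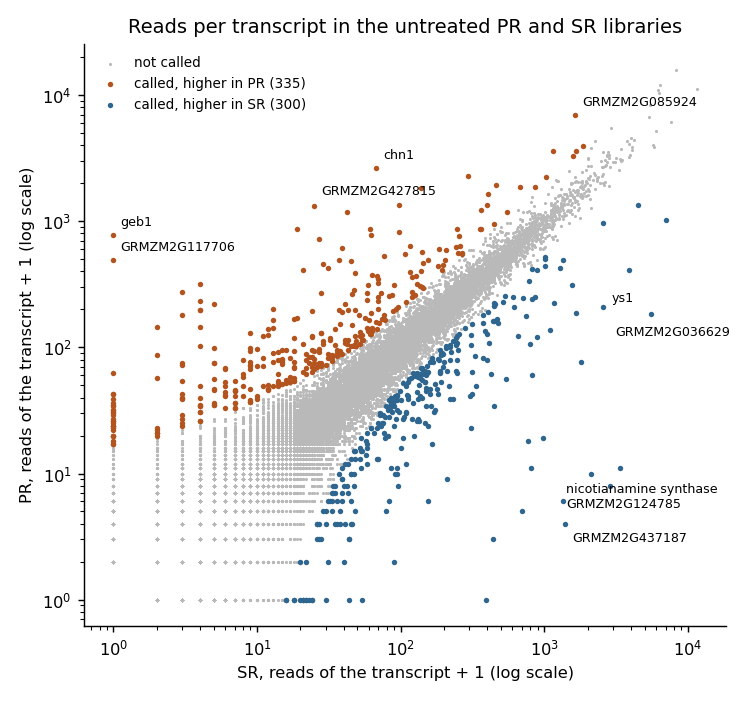
Reads of each transcript plus 1 in SR (horizontal, log scale) and PR (vertical, log scale), 1 library each. Grey points were not called, and the 335 coloured points above and the 300 below the diagonal were called higher in PR and in SR. The 5 called nicotianamine synthase transcripts lie far to the lower right, with 10 reads or fewer in PR and up to 3383 in SR.

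Nicotianamine synthases, which join S-adenosylmethionine into nicotianamine, were far more abundant in SR. The 9 transcripts with this KEGG entry together had 73 reads in PR, 63 in PR-salt, 9496 in SR, 7243 in SR-salt, 22536 in CR and 12134 in CR-salt. They were thus low in both PR libraries and high in the other 4. Their summed reads were 133-fold higher in SR than in PR (95% interval 106 to 170), which took them from 0.0029% to 0.38% of the counted reads. Of the 9, 5 were called, all higher in SR.

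GRMZM2G124785 had 10 reads in PR, 11 in PR-salt, 3383 in SR, 2727 in SR-salt, 8444 in CR and 4644 in CR-salt. GRMZM2G030036 (nas2) had 7, 14, 2871, 2289, 7136 and 3836 reads in the same order, 421-fold more per counted read in SR than in PR (204 to 1048). GRMZM2G704488 had 9, 9, 2105, 1427, 4577 and 2320 reads and, per length, the highest level of the family in SR, 858 RPKM against 3.58 in PR. In all 3, both PR libraries had 14 reads or fewer and the other libraries 1427 or more. GRMZM2G312481 was 179-fold higher in SR (69.4 to 657), from 4 and 696 reads. AC233955.1_FGT003 had no read in PR and 391 in SR, at least 134-fold more against a floor of 3 reads. One further member, GRMZM2G478568, was not called: it had 40 reads in PR and 41 in SR. The members are close copies of each other and only uniquely aligned reads were counted, so the split of reads between them is uncertain.

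The enzymes after nicotianamine were also higher in SR. GRMZM2G096958 (naat1), the aminotransferase that takes nicotianamine towards deoxymugineic acid, had 175 reads in PR, 197 in PR-salt, 740 in SR, 485 in SR-salt, 1302 in CR and 472 in CR-salt, a 4.34-fold difference between SR and PR (3.68 to 5.15). GRMZM2G412604, which carries the same tyrosine aminotransferase entry, had 185 reads in PR and 1654 in SR and was 9.17-fold higher in SR (7.88 to 10.7). GRMZM2G060952 (DMAS1), deoxymugineic acid synthase, had 63 and 311 reads and was 5.07-fold higher (3.85 to 6.75). In PR these enzymes had 63 to 185 reads, more than the 5 called synthases, which had 10 or fewer.

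Both transporters of the pathway differed in the same direction. GRMZM2G156599 (ys1), the importer of the iron and phytosiderophore complex, had 207 reads in PR, 235 in PR-salt, 2543 in SR, 2657 in SR-salt, 4316 in CR and 3387 in CR-salt. Its level was 39.5 RPKM in PR and 498 in SR, 12.6-fold higher in SR (10.9 to 14.6). GRMZM2G063306 (YS3, also ZmTOM1), named for the phytosiderophore exporter, had 5, 28, 1339, 1498, 1863 and 1517 reads for its more abundant transcript, GRMZM2G063306_T02, 275-fold more in SR than in PR (117 to 848). Its other transcript had 0 reads in PR and 29 in SR. Of the 12 transcripts of this pathway with at least 20 reads, 11 were called higher in SR and none higher in PR, with a median log2 PR/SR of -6.05, against -0.02 over all 18084 transcripts of that depth, of which 1.63% were called higher in SR. The pathway was put together after these values were seen.

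The methionine salvage cycle and the reactions that recycle its adenine and ribose were higher in SR as well. GRMZM2G574782, with the entry of methylthioribulose 1-phosphate dehydratase and enolase-phosphatase, had 1016 reads in PR, 1267 in PR-salt, 7074 in SR, 7919 in SR-salt, 17392 in CR and 10654 in CR-salt. Its level was 256 RPKM in PR and 1826 in SR, a 7.14-fold difference (6.69 to 7.64) and the most reads of any transcript called higher in SR. GRMZM2G165998, the dioxygenase that follows in the cycle, was 5.34-fold higher (225 and 1171 reads), and GRMZM2G464137, the 5-methylthioribose kinase, 3.01-fold (208 and 610 reads for GRMZM2G464137_T02). The adenine phosphoribosyltransferases GRMZM2G093347 (959 and 2571 reads) and GRMZM2G131907 (122 and 654) were 2.75-fold and 5.50-fold higher in SR.

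The largest differences of this group lay in the supply of phosphoribosyl groups. GRMZM2G035599, a ribose 5-phosphate isomerase, had 10 reads in PR, 11 in PR-salt, 810 in SR, 682 in SR-salt, 1725 in CR and 849 in CR-salt, 83.1-fold more in SR than in PR (45.0 to 174). GRMZM2G065030, a ribose-phosphate pyrophosphokinase, had 17, 12, 771, 494, 1393 and 576 reads, 46.5-fold more in SR (28.9 to 80.3). In both, PR and PR-salt had 17 reads or fewer and the other libraries 494 or more. Of 15 salvage and recycling transcripts with at least 20 reads, 9 were called higher in SR and none higher in PR, with a median log2 PR/SR of -1.58. Over all transcripts of that depth 1.63% were called higher in SR. S-adenosylmethionine synthetases were not among the calls without NaCl. The most abundant, AC199526.5_FGT002, had 3506 reads in PR and 2772 in SR. GRMZM2G117198_T02 had 38 and 79, a log2 PR/SR of -1.09 (-1.69 to -0.52). It was called higher in SR-salt than in PR-salt (log2 -1.21) and passed edgeR's quasi-likelihood test over both NaCl levels (log2 -1.14 ± 0.22, SE, FDR 0.0144). This list, too, was formed after the values were seen.

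**Figure D2:**
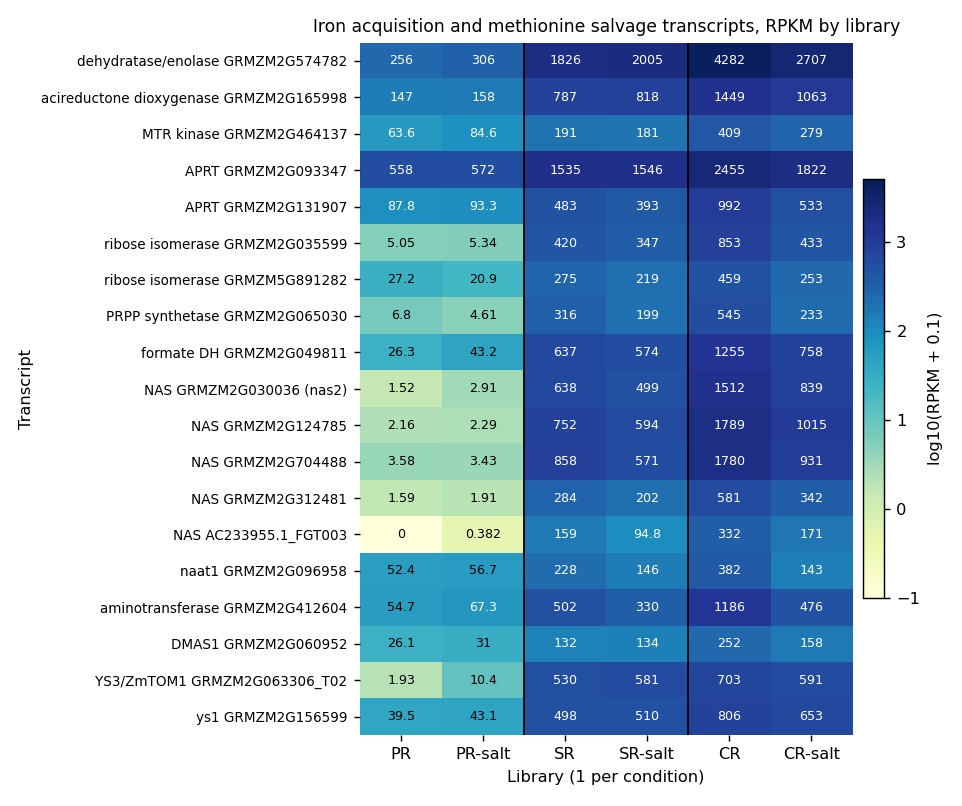
RPKM of transcripts of methionine salvage, formate dehydrogenase and iron acquisition (vertical) in the 6 libraries (horizontal), with colour for log10(RPKM + 0.1) and the RPKM printed in each cell. The PR and PR-salt columns hold the lowest values in every line shown, for example 1.52 and 2.91 RPKM for nas2 against 638 in SR.

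Formate dehydrogenases, which oxidise the formate that the salvage cycle releases, went in both directions. GRMZM2G049811 had 76 reads in PR, 130 in PR-salt, 1796 in SR, 1650 in SR-salt, 3709 in CR and 2171 in CR-salt, 24.2-fold more in SR (19.3 to 30.9). GRMZM2G111616 had 1 read in PR and 89 in SR, a ratio of 91.3 with a counting interval of 15.98 to 3647. GRMZM2G170602 was the reverse, with 1348 reads in PR, 758 in PR-salt, 97 in SR, 123 in SR-salt, 63 in CR and 44 in CR-salt, 13.5-fold more in PR (11.02 to 16.82).

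Other metal transporters higher in SR were found among ZIP proteins, which import zinc and iron, and among exporters. GRMZM2G115190, a ZIP entry, was without reads in PR and PR-salt and had 53 in SR, 34 in SR-salt, 46 in CR and 20 in CR-salt, at least 18.1-fold more in SR. GRMZM2G050484, also a ZIP entry, was 2.12-fold higher (112 and 231 reads). GRMZM2G148060, an iron-regulated transporter of solute carrier family 40, was 5.73-fold higher (31 and 173 reads). GRMZM2G029951, a copper-exporting ATPase, was 5.14-fold higher (312 and 1563 reads), and GRMZM2G144083, with the same entry, 2.47-fold (156 and 375). Of 31 metal uptake transcripts measured, 7 were called higher in SR and 0 higher in PR. Of these 7, 5 were the nicotianamine synthases described above. The share called higher in SR over all transcripts with at least 20 reads was 1.63%.

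The highest level of any transcript called higher in SR belonged to GRMZM2G036629, which has no annotation in the table. It had 182 reads in PR, 145 in PR-salt, 5522 in SR, 5602 in SR-salt, 6429 in CR and 5839 in CR-salt, and its RPKM was 296 in PR and 9231 in SR, 31.1-fold higher (26.9 to 36.3). GRMZM2G437187, a member of the pathogenesis-related protein 1 family of secreted proteins, had 3, 2, 1390, 947, 1733 and 918 reads, a ratio of 475 (162 to 2308). Both stood apart in PR and PR-salt alike. AC193786.3_FGT005 (18 and 977 reads, 55.7-fold) and AC197674.4_FGT002 (2 and 437 reads, a ratio of 224) were further unannotated transcripts with this pattern.

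Without NaCl, transport and assimilation of phosphate and nitrogen differed through single members. GRMZM2G070087 (pht9), a phosphate transporter, had 406 reads in PR, 425 in PR-salt, 3857 in SR, 2929 in SR-salt, 3594 in CR and 1412 in CR-salt, 9.75-fold more in SR (8.80 to 10.8), whereas GRMZM2G326707 (pht1) had 398 and 491 and GRMZM2G154090 (pht2) 494 and 402 reads in PR and SR and were not called. GRMZM2G077054, a glutamate synthase, which passes amide nitrogen to glutamate, had 1354, 1300, 4516, 5190, 1757 and 2158 reads and was 3.42-fold higher in SR (3.22 to 3.64). Here SR and SR-salt were above CR too. Asparagine synthetases differed in opposite directions: GRMZM2G078472_T03 was 14.3-fold higher in SR (22 and 307 reads in PR and SR) and GRMZM2G053669 (asn3) 2.68-fold higher in PR (1860 and 677 reads). Of 33 transcripts of nitrogen transport and assimilation, 1 was called higher in PR and 2 in SR (9.09% together). Of all transcripts with at least 20 reads, 3.45% were called. Between PR-salt and SR-salt, 10 of the nitrogen list were called higher in SR-salt and 0 in PR-salt. Among 12 sugar transporters of solute carrier family 50, only GRMZM2G000812 was called, 7.10-fold higher in SR (48 and 332 reads). The peptide and nitrate transporter GRMZM2G400602, of family 15, was 13.9-fold higher in SR (33 and 448), while 5 others of the 38 measured in family 15 were higher in PR.

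PR was marked by transcripts of defence proteins that act on microbial walls and proteases. GRMZM2G453805 (chn1), a chitinase, had 2658 reads in PR, 1043 in PR-salt, 66 in SR, 97 in SR-salt, 174 in CR and 159 in CR-salt. Its level was 1170 RPKM in PR and 29.8 in SR, 39.2-fold higher in PR (30.7 to 50.9). GRMZM2G065585 (geb1), listed as a glucan endo-glucosidase, had 771 reads in PR, 80 in PR-salt and none in the other 4 libraries, at least 250-fold more in PR than in SR. Both PR libraries were above all others in both transcripts, and PR was above PR-salt. GRMZM2G162359, another chitinase, was 15.8-fold higher in PR (617 and 38 reads). Of 19 chitinases measured, 6 were called higher in PR and 2 higher in SR, where 1.82% and 1.63% of all transcripts with at least 20 reads were. Among those higher in SR was GRMZM2G145518 (212 reads in PR and 442 in SR). The median log2 PR/SR of the 19 was 0.23. Between PR-salt and SR-salt, 2 chitinases were called higher in PR-salt and 2 in SR-salt. By edgeR's test over both NaCl levels 3 passed as higher in PR and 2 as higher in SR.

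Of 20 transcripts with the GO function endopeptidase inhibitor, 8 (40.0%) were called higher in PR and 0 in SR, against 1.82% of all transcripts with at least 20 reads that were higher in PR. GRMZM2G156632 (wip1), a Bowman-Birk type protease inhibitor, had 198 reads in PR, 61 in PR-salt, 3 in SR, 0 in SR-salt, 0 in CR and 1 in CR-salt, a ratio of 64.3 (21.7 to 315). GRMZM2G012160, a cystatin, an inhibitor of cysteine proteases, had 492, 342, 203, 333, 191 and 232 reads and was 2.36-fold higher in PR (2.00 to 2.80). The first had 3 reads or fewer outside PR and PR-salt, while the second was as high in SR-salt as in PR-salt. GRMZM2G465226, a pathogenesis-related protein 1, was 13.9-fold higher in PR (428 and 30 reads), opposite in direction to GRMZM2G437187 of the same family. Of 28 transcripts with the GO process defence response to fungus, 6 were higher in PR and 1 in SR.

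Class III peroxidases, secreted enzymes that couple or cleave wall phenolics with hydrogen peroxide, were split between the root types. Of 96 measured, 13 were called higher in PR and 12 higher in SR, a share of 26.04% where 3.45% of all transcripts with at least 20 reads were called. GRMZM2G427815 had 1320 reads in PR, 138 in PR-salt, 24 in SR, 32 in SR-salt, 27 in CR and 34 in CR-salt, 53.6-fold more in PR (35.9 to 84.0). GRMZM2G117706 had 491 reads in PR, 14 in PR-salt and none in the other 4 libraries, at least 159-fold more in PR than in SR. In both, PR stood above every other library.

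GRMZM2G025441 (PER70) was the peroxidase with the most reads among those called, with 3592 in PR, 3420 in PR-salt, 1147 in SR, 659 in SR-salt, 269 in CR and 297 in CR-salt, 3.05-fold more in PR (2.85 to 3.26). GRMZM2G133475 (PER66) was 4.06-fold higher in PR (1928 and 463 reads), and GRMZM2G103342 was 26.9-fold higher (719 and 26). In the other direction, the peroxidase GRMZM2G061088 had 120, 108, 888, 1021, 1631 and 1712 reads in the same order, 7.59-fold more in SR (6.27 to 9.27). The median log2 PR/SR of the 96 was -0.22.

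Flavonoid and anthocyanin enzymes were called higher in PR from the first step of the pathway to the glucosylation of anthocyanidins, though not at every step. GRMZM2G422750 (c2), chalcone synthase, the first step, had 125 reads in PR, 113 in PR-salt, 11 in SR, 19 in SR-salt, 6 in CR and 34 in CR-salt for GRMZM2G422750_T03, 11.1-fold more in PR (5.98 to 22.8). GRMZM2G062396 (fht1), flavanone 3-hydroxylase, had 861, 701, 60, 53, 52 and 121 reads, 14.0-fold more (10.8 to 18.5). GRMZM2G345717 (a2), leucoanthocyanidin dioxygenase, had 1844, 1867, 137, 115, 83 and 176 reads, 13.1-fold more (11.02 to 15.72). In all 3, PR and PR-salt were above the other 4 libraries. GRMZM2G165390 (bz1), the glucosyltransferase, had 71 reads in PR and 2 in SR, a ratio of 34.6 (9.23 to 291). GRMZM2G016241_T02 (bz2), a glutathione S-transferase of anthocyanin sequestration, was 9.26-fold higher (171 and 18 reads). GRMZM2G155329 (chi1), chalcone isomerase, was not called, with 235 reads in PR and 136 in SR.

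Of 30 flavonoid and anthocyanin transcripts measured, 9 were called higher in PR and 0 higher in SR, with a median log2 PR/SR of 0.74. Of all transcripts with at least 20 reads, 1.82% were called higher in PR. The flavonoid list was formed after the values were seen. Its 65 transcripts together had 6787 reads in PR, 5964 in PR-salt, 2578 in SR, 2995 in SR-salt, 2135 in CR and 2623 in CR-salt, a log2 PR/SR of 1.36 (1.29 to 1.43). Both PR libraries were above the other 4. In the step before the pathway, GRMZM2G118345, a phenylalanine ammonia-lyase, was 5.33-fold higher in PR (197 and 36 reads). The cinnamate 4-monooxygenases went both ways: GRMZM2G028677 was 5.39-fold higher in PR (636 and 115 reads) and GRMZM2G147245 was 2.36-fold higher in SR (440 and 1011). Of 58 phenylpropanoid and lignin transcripts, 7 were higher in PR and 4 in SR.

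The transcript with the most reads among those higher in PR was GRMZM2G085924, an O-methyltransferase with the resveratrol entry, with 6908 reads in PR, 8342 in PR-salt, 1631 in SR, 1563 in SR-salt, 760 in CR and 909 in CR-salt. Its level was 2473 RPKM in PR and 599 in SR, 4.13-fold higher in PR (3.91 to 4.36). Of all transcripts with at least 20 reads, 1.82% were called higher in PR. In the list of the resveratrol entry, formed after the values were seen, 5 of 16 transcripts (31.2%) were called higher in PR and 0 in SR. Among them GRMZM2G127418 (BX14), named for a methyltransferase of benzoxazinoids, defence compounds of grasses, had 486, 106, 44, 44, 46 and 10 reads, 10.8-fold more in PR (7.90 to 15.01). In the first of these PR-salt was above PR, and in the second it was below.

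Terpene synthases make volatile and diterpenoid defence compounds. Of 17 annotated, 10 were measured, and 7 of these were called higher in PR and 0 in SR, with a median log2 PR/SR of 2.11. This was the largest share of calls in 1 direction among the lists not formed after the values were seen. The share called higher in PR over all transcripts with at least 20 reads was 1.82%. All 7 were of low abundance, with 31 to 57 reads in PR. The reads of PR alone took each of them past the minimum of 20, so the share and the median depend in part on this minimum. GRMZM2G127087_T02 (tps6), a β-macrocarpene synthase, had 34 reads in PR, 123 in PR-salt and 0 in the other 4 libraries, at least 11.04-fold more in PR than in SR. GRMZM2G028306, of the same entry, had 31 reads in PR, 219 in PR-salt, 0 in SR, 2 in SR-salt and 0 in both CR libraries, at least 10.1-fold more. These were the reverse of chn1 and geb1 in that PR-salt was above PR. GRMZM2G044481 (an2), an ent-copalyl diphosphate synthase, had 57 reads in PR and 7 in SR, 7.94-fold more (3.61 to 20.6). Reads of close copies can be misassigned here too.

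**Figure D3:**
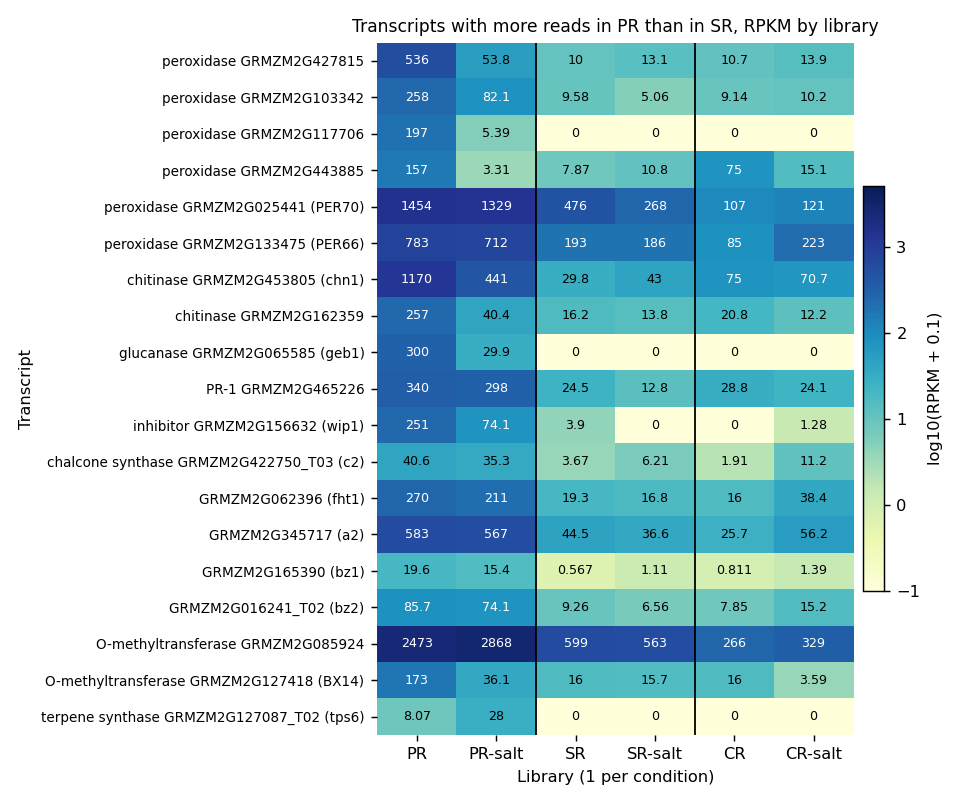
RPKM of transcripts with more reads in PR than in SR (vertical) in the 6 libraries (horizontal), with colour for log10(RPKM + 0.1) and the RPKM printed in each cell. Flavonoid transcripts and PER70 are similar in PR and PR-salt, whereas GRMZM2G117706, geb1 and chn1 are highest in PR.

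Unannotated or singly annotated transcripts also marked PR. GRMZM2G374405, with no annotation, had 1177 reads in PR, 1685 in PR-salt, 41 in SR, 47 in SR-salt, 45 in CR and 56 in CR-salt, 28.0-fold more in PR (20.5 to 39.2). GRMZM2G122018 (GLP2), named as a germin-like protein, had 772, 1222, 61, 105, 77 and 122 reads, 12.3-fold more (9.496 to 16.28). Both were above the other 4 libraries in PR and PR-salt. GRMZM2G387394, an agmatine coumaroyltransferase, which joins hydroxycinnamic acids to agmatine, had 178 reads in PR and 2 in SR, a ratio of 86.7 (23.7 to 722). GRMZM2G015933, with the entry of a somatic embryogenesis receptor kinase, had 317 and 3 reads, a ratio of 103 (34.9 to 502). GRMZM2G039639, with the GO process of defence against fungi, had 274 and 2 reads, a ratio of 134 (36.6 to 1108).

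Several of the most abundant transcripts differed by little more than the 2-fold limit. GRMZM2G141473, with the entry of indole-3-acetaldehyde oxidase, had 3960 reads in PR and 1844 in SR (2.09-fold). GRMZM2G049915, listed as prcw1, had 3630 and 1673 (2.11-fold), and GRMZM2G098346 (adh2), an alcohol dehydrogenase, 3270 and 1585 (2.01-fold, 1.89 to 2.14). The beta-glucosidase GRMZM2G016890 (glu1), which can release benzoxazinoids and cytokinins from their glucosides, had 2240 and 1026 (2.13-fold). The expansin GRMZM2G339122 (expa1), of a family that loosens cell walls, had 859 reads in PR, 203 in PR-salt, 245 in SR, 242 in SR-salt, 180 in CR and 146 in CR-salt, 3.42-fold more in PR than in SR (2.96 to 3.95). PR was above the other 5 libraries, whose reads lay between 146 and 245.

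Lists of the growth machinery held few calls or none, where 3.45% of all transcripts with at least 20 reads were called. In lists of 19 to 33 transcripts a count of 0 is close to that share. None of the 19 cellulose synthases, 20 xyloglucan transferases, 33 pectin-modifying enzymes, 21 tubulins, 26 aquaporins or 250 cytosolic ribosomal proteins with at least 20 reads was called, but below that depth 1 pectate lyase (GRMZM2G126077, 0 reads in PR and 15 in SR) was higher in SR and 1 tonoplast aquaporin (GRMZM2G037327, 16 and 0 reads) higher in PR. The first of these calls was lost with the size factors of DESeq2 and the second with Fisher's exact test. Among 58 histones 1 was called, GRMZM2G107540, an H2A with 37 reads in PR and 82 in SR that was not called with the size factors of DESeq2, and the median log2 PR/SR of the list was -0.47. Among 99 cyclins, cyclin-dependent kinases and replication proteins 1 was called, the cyclin B GRMZM2G061287, with 54 and 140 reads, and their median was -0.04. Ribosomal proteins had a median of -0.20. A median below 0 here means a lower level in PR than in SR. Of 48 suberin and very-long-chain fatty acid enzymes, which serve the barriers of the differentiating root, 4 were higher in PR and 2 in SR.

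**Figure D4:**
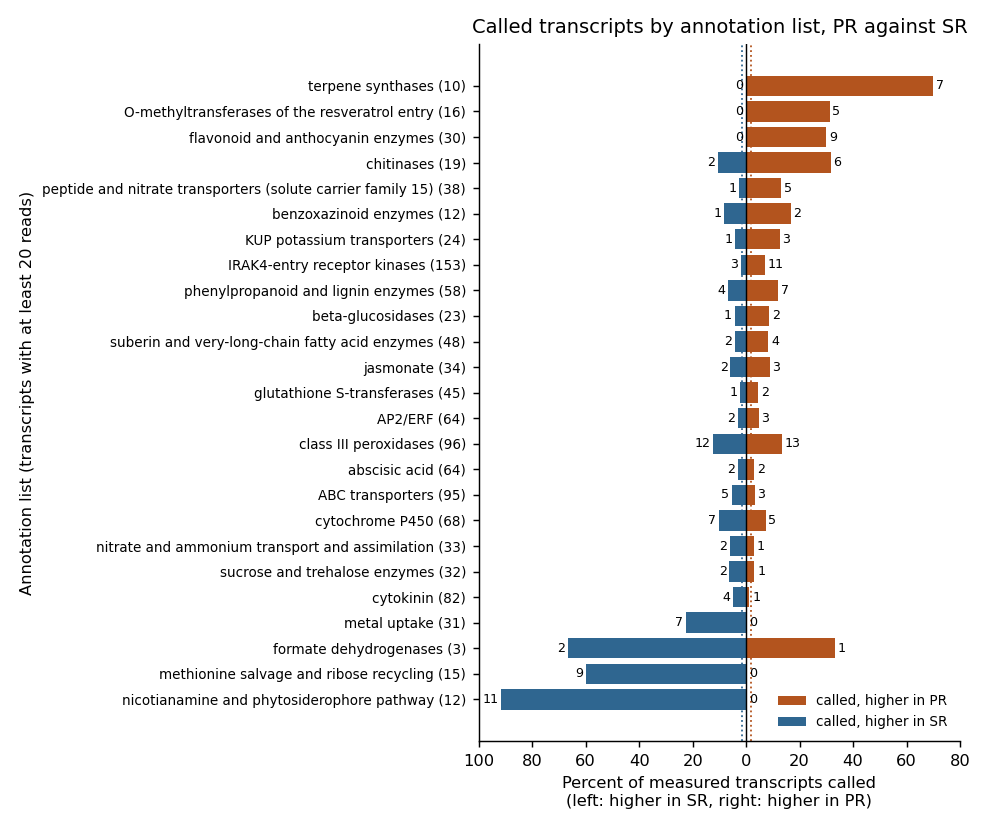
Percent of the measured transcripts (at least 20 reads in PR and SR together) of each annotation list that were called higher in PR (to the right) and higher in SR (to the left), for lists with at least 3 calls. The number of calls stands beside each bar, the number measured beside each list name, and the dotted lines mark 1.82% and 1.63%, the shares over all transcripts. The iron pathway and methionine salvage lie to the left, terpene synthases and flavonoid enzymes to the right, and peroxidases extend about equally to both sides.

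Among annotated functions with at least 10 measured transcripts and 4 calls in 1 direction, those with calls in SR only included metals, sulfur and cytokinin signalling. Other terms had calls in both directions, such as alkyl or aryl transferases (6 of 59 higher in SR and 3 in PR) and cell wall macromolecule metabolism (4 of 26 and 3). Of all transcripts with at least 20 reads, 1.63% were called higher in SR. Of 44 transcripts with the GO process transition metal ion transport, 8 (18.2%) were higher in SR and 0 in PR, and all 8 were nicotianamine synthases, both aminotransferases or DMAS1. Of 72 with sulfur amino acid biosynthesis, 4 were higher in SR and 0 in PR. ARR-B response regulators, which carry the cytokinin signal to its target genes, had 4 of 31 higher in SR and 0 in PR, and GRMZM2G124495 differed most, with 8 reads in PR and 209 in SR (26.8-fold, 13.4 to 62.9). The median log2 PR/SR of the 31 was -0.002. For PR the terms included those of lyases acting on phosphates (6 of 11, all terpene synthases), endopeptidase inhibitors, chitinases and methyltransferases (5 of 41). The receptor kinases with the IRAK4 entry had 11 of 153 higher in PR and 3 in SR, where 1.82% and 1.63% of all transcripts with at least 20 reads were. Between PR-salt and SR-salt the balance was the reverse, with 3 of these kinases called higher in PR-salt and 8 in SR-salt. By edgeR's test over both NaCl levels 9 passed in each direction. The 4 transcripts of the term auxin transport called higher in PR were GRMZM2G170927, an inorganic pyrophosphatase, GRMZM2G007953 and both c2 transcripts, none of which is an auxin carrier by its KEGG entry.

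Hormone and transcription factor lists held 1 to 5 calls each, and several of these counts, such as those of gibberellin (2.86%) and WRKY factors (4.55%), are near the 3.45% called among all transcripts with at least 20 reads. Of 67 auxin transcripts 1 was called, GRMZM2G016958, a hydrolase of auxin conjugates, with 127 reads in PR and 60 in SR. Of 34 jasmonate transcripts 3 were higher in PR, including GRMZM2G109130 (lox3), a lipoxygenase, with 941 and 442 reads, and 2 in SR. Gibberellin had 2 of 70 higher in PR, among them GRMZM2G031724, a gibberellin 2-oxidase, which inactivates the hormone, with 55 and 4 reads. Between PR-salt and SR-salt, 0 of the gibberellin list were called higher in PR-salt and 2 in SR-salt. Of 64 AP2/ERF factors 3 were higher in PR and 2 in SR, of 44 WRKY factors 2 in SR, and of 73 MYB factors 1 in SR. Isocitrate lyase, an enzyme of the glyoxylate cycle used when seed lipid is consumed, was 7.58-fold higher in PR for GRMZM2G056369 (icl1), with 70 reads in PR, 6 in PR-salt, 9 in SR, 8 in SR-salt, 2 in CR and 1 in CR-salt. It was the only 1 called of 3 measured transcripts of the glyoxylate cycle and gluconeogenesis, whose median log2 PR/SR was -0.09. The 6 listed transcripts summed to 138 RPKM in PR, 133 in SR and 240 in CR. Between PR-salt and SR-salt 0 of them were called.

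Of the root mutant genes, GRMZM2G092542 (rtcs), a LOB domain factor needed for the formation of seminal and crown roots, had 3 reads in PR and 0 in SR, too few to compare. GRMZM2G377215 (rth3), a gene of root hair elongation, had 57 reads in PR, 55 in PR-salt, 107 in SR, 61 in SR-salt, 91 in CR and 74 in CR-salt. Its log2 PR/SR was -0.95 (-1.44 to -0.46), and it was not called.

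The same root types were compared in a second pair of libraries that shares no library with the first, PR-salt and SR-salt. There 507 of 40873 transcripts (1.24%) were called, 191 higher in PR-salt (0.467%) and 316 higher in SR-salt (0.773%). Of the 335 transcripts higher in PR without NaCl, 97 were also called higher in PR-salt, which is 29.0% of the first list and 50.8% of the second. Of the 300 higher in SR, 164 were also called higher in SR-salt, 54.7% and 51.9% of the lists. In each direction 2 were called the opposite way. All 11 iron pathway transcripts called without NaCl and 8 of the 9 salvage transcripts were called in the same direction in the salt pair, as were 2 of the 6 chitinases higher in PR. The median RPKM of the PR-high transcripts was 38.5 in PR and 18.4 in PR-salt, with 7.87 in SR and 9.53 in SR-salt, for transcripts chosen by their values in PR and SR. For the SR-high transcripts it was 46.9 in SR and 34.7 in SR-salt, with 11.2 in PR and 11.9 in PR-salt.

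Whether the PR/SR ratio itself differed with NaCl was tested on the reads of the 4 libraries by an exact conditional test. It did in 158 of 22321 transcripts (0.708%): the ratio was larger without NaCl in 101 (0.452%) and smaller in 57 (0.255%). Among the transcripts higher in PR there were 50, and among those higher in SR 19. The difference was smaller with NaCl in 50 and 18 of these, a direction that their choice by a large difference without NaCl nearly fixes. Transcripts chosen in the salt pair went the other way: of the 30 higher in PR-salt and 32 higher in SR-salt whose ratio differed, 23 and 31 had the smaller difference without NaCl. The peroxidase GRMZM2G443885 had 409 reads in PR, 9 in PR-salt, 20 in SR and 28 in SR-salt, and the NAC factor GRMZM2G127379 74, 1, 2 and 8. In both, PR-salt was below SR-salt. None of the measured transcripts of the iron pathway or of methionine salvage was among the 158, and 5 of the 30 flavonoid transcripts were. So were 8 of the listed transcripts of nitrogen transport and assimilation.

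**Figure D5:**
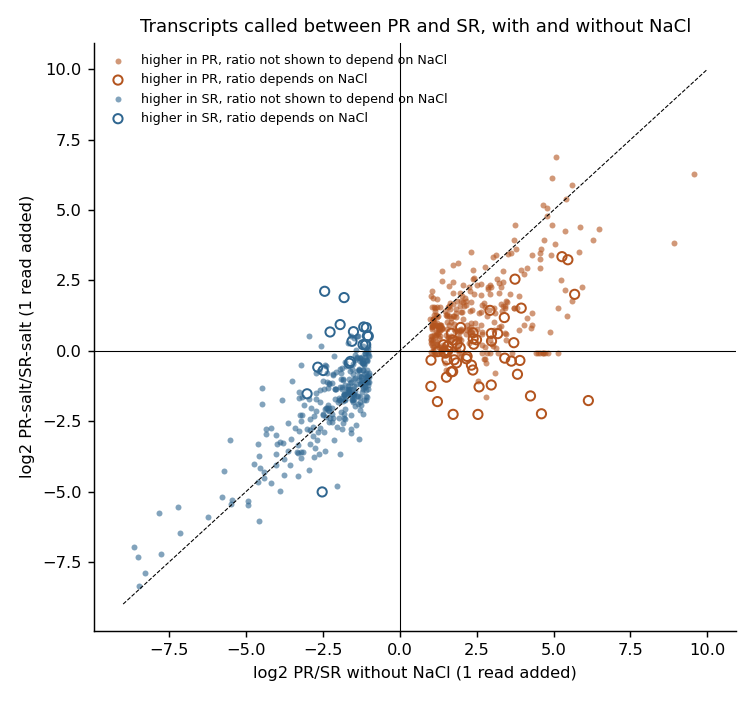
log2 PR/SR without NaCl (horizontal) and log2 PR-salt/SR-salt (vertical), each after adding 1 read, for the 635 called transcripts. Open circles mark those whose ratio differed with NaCl, 50 among the PR-high and 19 among the SR-high, and the dashed line marks equal ratios. The median of the PR-high transcripts is 2.17 without and 0.91 with NaCl, and that of the SR-high ones -1.86 and -1.52; all were chosen without NaCl, and those chosen with NaCl have medians of 1.71 with and 1.13 without it (higher in PR-salt) and -1.89 and -1.32 (higher in SR-salt).

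To give the difference an error, PR and SR were also compared over both NaCl levels with edgeR's quasi-likelihood test, in a model of root type and NaCl over the 6 libraries, where libraries of both NaCl levels stand in for replicates. Of 18444 transcripts, 864 (4.68%) passed an FDR of 0.05, 374 higher in PR (2.03%) and 490 higher in SR (2.66%). Of the calls without NaCl, 168 of the 261 PR-high and 234 of the 293 SR-high transcripts that could be tested passed in the same direction. The model holds the PR and SR libraries that chose these transcripts, so this count is a description. By this test the log2 PR/SR was -7.97 ± 0.26 (SE) for nas2 (FDR 1.96e-08), -3.60 ± 0.13 for ys1 (4.48e-08) and -6.46 ± 0.31 for GRMZM2G063306_T02 (5.86e-07). It was -2.76 ± 0.19 for GRMZM2G574782 (FDR 9.2e-06). Among the PR-high transcripts it was 4.36 ± 0.35 for chn1 (FDR 3.29e-05), 3.84 ± 0.24 for a2 (4.94e-06) and 4.97 ± 0.13 for GRMZM2G374405 (4.3e-09). expa1 did not pass (0.89 ± 0.37, FDR 0.266). Of the measured lists, 11 of 12 iron pathway transcripts and 10 of 16 salvage transcripts passed, all higher in SR, as did 9 of 27 flavonoid transcripts and 1 of 6 terpene synthases, these higher in PR. Of 57 histones, 6 passed, all higher in SR.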

How the data were processed

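RNA from root tips was measured in 6 libraries, 1 for each root type and NaCl level. The authors deposited a table of 48312 transcripts of 43006 genes with the count of uniquely aligned reads, the RPKM, the percent of each transcript covered by reads (not used), lengths and annotation. They aligned reads with SOAP to B73 RefGen_V2 and used BLAST to relate them to genes. Recomputing the deposited RPKM from counts, lengths and library totals gave a largest difference of 1.74e-06. No sample column was left unmapped (0), and no comparison made by the authors was used. Gene names came from a RefSeq table, in which 374 of the 635 called transcripts were found by identifier. It describes another assembly, Zm-B73-REFERENCE-NAM-5.0, so no coordinates are given. The first KEGG entry of each transcript was used.

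The depth was 2493000 to 2663000 reads to the nearest 1000. Intervals are exact (Clopper-Pearson, 95%) and cover counting error only, since reads carried no molecular identifiers. Folds against 0 reads are lower bounds against 3 reads in that library, and with 1 to 3 reads the ratio is given with its interval. In the test of Audic and Claverie the counted reads were the library totals, p was 2 times the smaller tail, Benjamini-Hochberg adjustment ran over the 40709 transcripts detected, and an RPKM of 0 was set to 0.01. Medians of lists were taken over transcripts with at least 20 reads after adding 1 read. The PR/SR ratios without and with NaCl were compared by an exact test conditional on the totals, which follow Fisher's noncentral hypergeometric distribution, for transcripts with 20 reads or more in the 4 libraries, at an FDR of at most 0.001 and a log2 difference of at least 1. edgeR 4.0.16 used TMM and kept transcripts that reached 10 reads in 3 or more libraries, and DESeq2 1.42.0 was an alternative. Scripts ran in R 4.3.3 and in Python 3.11.15 (scipy 1.17.1, pandas 2.3.3, numpy 2.4.6, with plots by matplotlib 3.10.9), and the procedures were tested on simulated data.

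Alternatives were other tests, scalings, thresholds, read minimums and assumed biological variation. The comparison and its lists were chosen with earlier results of these data known. Transcripts were named by a fixed rule: in each direction the 10 largest log2 ratios among those with more than 3 reads in both libraries, the 6 with the most reads among those with 3 or fewer in the other library, the 6 with the most reads in all, the called member of highest RPKM in each list (or the highest where none was called), the root mutant genes, and genes that the study names. The lists of the iron pathway, methionine salvage, formate dehydrogenases, flavonoids, O-methyltransferases, pathogenesis-related protein 1, phosphate and potassium transporters and of families 15 and 50, and other members named from them or from the functions, were added after their values were seen. Entries that a list's words matched only in part, such as 2-isopropylmalate synthase under malate synthase, were removed.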

Additional observations from a re-analysis of the deposited data

Results flagged for a closer look

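The difference between PR and SR was not the same without and with NaCl in 158 transcripts, the ratio being larger without NaCl in 101 and smaller in 57, by the exact conditional test on the reads of PR, SR, PR-salt and SR-salt. The test compares 4 libraries, 1 per condition, and covers counting error only. The values that follow are the log2 PR/SR without NaCl minus that with NaCl, after adding 1 read, so that a positive value means a larger PR/SR ratio without NaCl. It was 6.84 for the NAC factor GRMZM2G127379, 5.85 for the peroxidase GRMZM2G443885 and 3.68 for the peroxidase GRMZM2G427815. The chitinases GRMZM2G162359 and GRMZM2G453805 (chn1) differed by 2.43 and 1.93, the O-methyltransferase GRMZM2G127418 (BX14) by 2.22 and the expansin GRMZM2G339122 by 2.09. Smaller differences were 1.74 for the phenylalanine ammonia-lyase GRMZM2G118345, 1.27 for the cystatin GRMZM2G012160, 1.20 for the asparagine synthetase GRMZM2G053669 and 1.20 for the formate dehydrogenase GRMZM2G170602. These transcripts were called higher in PR without NaCl. The ratio was smaller without NaCl for the pyruvate decarboxylase AC197705.4_FGT001 (-2.87), the sugar transporter GRMZM2G173669 (-1.30), the potassium transporter GRMZM2G425999 (-1.23) and the peroxidase GRMZM2G044049 (-1.20). Of these, GRMZM2G173669 was not called between PR and SR, and the others were called higher in SR. What moved the ratio was not tested.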

How the results depend on the processing

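No paired analysis was possible because the labels carry no replicate numbers to pair by; the NaCl level was a term of the edgeR model over both levels. The number of calls between PR and SR stayed within 1.5 times of 635 under Fisher's exact test (622), TMM (633) or DESeq2 scaling (641), a log2 ratio of 1.5 (454), 20 reads or more (673), 1 read added (633), reads summed to genes (634) and, both chosen after seeing the data, the study's read totals (639) or without the 10 most abundant transcripts (631). An FDR of 0.05 gave 1089 calls, 556 higher in PR and 533 in SR. Adding an assumed biological variation by an edgeR exact test lowered them to 408 at a BCV (biological coefficient of variation) of 0.1, with 183 higher in SR, to 173 at 0.2 (106 and 67) and to 25 at 0.4 (13 and 12). The 25 included 5 nicotianamine synthases, GRMZM2G063306_T02, GRMZM2G036629, chn1, geb1, wip1 and GRMZM2G427815, and no flavonoid enzyme or terpene synthase. With PR-salt and SR-salt an FDR of 0.05 gave 870 calls (342 and 528) and a BCV of 0.2 gave 101 (37 and 64). For the dependence on NaCl an FDR of 0.05 gave 311 transcripts (193 and 118). Over both NaCl levels DESeq2's Wald test called 333 (115 and 218), and edgeR without the read minimum 1638 (808 and 830). Of 270 named transcripts, 5 lost their call under 1 setting each, 1 gained it and 0 reversed, and of the counts of calls per list 406 stayed within 1.5 times and 50 did not. No replicate error could be had for PR and SR without NaCl, and the errors of the edgeR model treat the NaCl levels as replicates. Transcripts with fewer than 15 reads in PR and SR together were not called.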

Other observations

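Several groups outside the comparisons described differed through few members. For the counts that follow, 1.82% of all transcripts with at least 20 reads were called higher in PR and 1.63% higher in SR. Among 24 KUP potassium transporters, a list formed after the values were seen, 3 were called higher in PR and 1 in SR. Between PR-salt and SR-salt 0 of this list were called. GRMZM2G084779 (HAK5), named for a high-affinity potassium transporter, had 66 reads in PR, 14 in PR-salt, 8 in SR, 2 in SR-salt, 3 in CR and 3 in CR-salt, 8.04-fold more in PR than in SR (3.85 to 19.4). PR was thus above every other library. GRMZM2G032628 (ae1), a starch branching enzyme, had 67 and 5 reads in PR and SR, 13.1-fold more in PR (5.33 to 41.5), and 2 of 24 starch enzymes were higher in PR and 0 in SR. GRMZM5G815545, with the catalase entry, had 42 reads in PR and 0 in SR, at least 13.6-fold more. Of 25 transporters with the myo-inositol entry, 4 were higher in PR and 1 in SR.

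The other lists held calls in both directions or a single call, where 3.45% of all transcripts with at least 20 reads were called, and several of their shares, such as those of proton pumps (3.57%), glycolysis (2.82%) and heat shock proteins (2.27%), are near it. Higher in PR and in SR were 5 and 7 of 68 cytochrome P450s, 2 and 1 of 45 glutathione S-transferases, 2 and 1 of 12 benzoxazinoid enzymes, 2 and 1 of 23 beta-glucosidases and 3 and 5 of 95 ABC transporters. Counts of 1 and 2 were found among 32 sucrose and trehalose enzymes, of 2 and 2 among 64 abscisic acid transcripts, and of 1 and 1 among 71 glycolysis and fermentation enzymes, 28 ethylene transcripts and 56 proton pumps and pyrophosphatases. Of 44 heat shock proteins 1 was higher in PR, and of 73 kinesins 1 was higher in SR.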
